A study of Mus musculus with 3 samples.

Results

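The cells described here are mouse hepatocytes in which no RNA of Glul was captured (the glutamine synthetase of the innermost cells at the central vein) and which scored highest for other genes of the pericentral zone. They were taken from single-cell RNA sequencing libraries of primary hepatocytes of wild-type (WT) mice, isolated by collagenase perfusion after 12 weeks on 1 of 3 diets. The diets were a 60% high fat diet supplemented with hyodeoxycholic acid, a bile acid, at 0.25% (HFD+HDCA), the 60% high fat diet alone (HFD) and a normal diet (ND), and the series' title places HDCA beside liver fat and the nuclear receptor PPARα. There was 1 library per diet, so no difference has a replicate check, and the intervals below cover the error of counting only. The sources used here do not give the number of mice per library, their sex or age, or the hour of isolation.

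Cells had at least 500 detected genes, at most 50% mitochondrially encoded counts and 0 Glul UMIs (unique molecular identifiers, the tags that mark each captured RNA molecule). Cells were selected on the measured expression of 8 zonation genes: the score of a cell was the sum of log1p counts per 10000 over Cyp2e1, Oat, Rgn and Cyp2c50 minus the same sum over the periportal genes Cyp2f2, Sds, Hal and Ass1. The highest 20% of scores within each library were taken, giving 331 HFD+HDCA, 236 HFD and 270 ND cells, 837 in all. They came from 4190 cells without Glul, 4732 cells that passed the filters and 16918 barcodes. The libraries held 8753465, 7593447 and 8677998 UMIs in HFD+HDCA, HFD and ND. Over all their barcodes the median mitochondrially encoded share of counts was 14.5%, 63.1% and 61.1% in the same order. The gene and mitochondrial filters kept 1923 of 4873, 1368 of 6290 and 1441 of 5755 barcodes. The chosen cells had median depths of 2442, 2168.5 and 1414 UMIs and together 903289, 514317 and 496225 counts of nuclear-encoded genes. Between 6 and 16 barcodes occurred in both of any pair of libraries, and 0 of them were among the chosen cells.

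Blood enters the liver lobule at the portal tract and leaves by the central vein, and hepatocytes differ along that path. Pericentral cells depend on Wnt signals from the central vein endothelium, which act through β-catenin and TCF factors, and they carry much of the cytochrome P450, bile acid and drug metabolism. The innermost layer takes up glutamate and ammonia for glutamine synthesis, while urea synthesis, gluconeogenesis and amino acid breakdown prevail towards the portal tract. The rule aims at the wider pericentral zone outside that innermost layer, and the ND cells met it at lower scores, as given below. A cell without a Glul UMI may still have held Glul RNA that was not captured. At the pericentral end of the score, 18.8%, 21.2% and 13.9% of all filtered cells in HFD+HDCA, HFD and ND had a Glul UMI, against 8.57%, 14.2% and 2.77% at the periportal end. Barcodes rich in endothelial or macrophage RNA had one in 35.2%, 37.5% and 19.8%, so a Glul UMI also occurred in barcodes of other cells.

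The score had to reach a very different value in ND to enter the highest 20%. The last cell inside had a score of 9.11 in HFD+HDCA, 8.83 in HFD and 1.64 in ND, and the first cell outside had 9.10, 8.82 and 1.62. The median score of the chosen cells was 10.95, 10.92 and 5.29. The middle 20% of scores ran from 2.28 to 6.24 in HFD+HDCA and from -2.50 to 4.99 in HFD. Part of the chosen ND cells therefore scored like the middle cells of the other libraries. With 1 common cut over the pooled cells of the 3 libraries, at a score of 7.79, 27.9% of the HFD+HDCA cells without Glul (95% exact binomial interval 25.7 to 30.1%), 25.4% of HFD cells (23.0 to 28.0%) and 5.62% of ND cells (4.45 to 6.99%) were taken. That cut held all 331 HFD+HDCA and all 236 HFD cells but only 76 of the 270 ND cells. The ND cells are therefore the upper end of the ND library and not cells of a like score, and the counts over ND and the main ratios are given under both cuts. A value given once is from the cut within each library, and so is the CPM of a gene unless the common cut is named. The ND cells were also the shallowest, and the part of depth in their lower scores was not tested. They are called pericentral below by their rank within the library only.

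**Figure D1:**
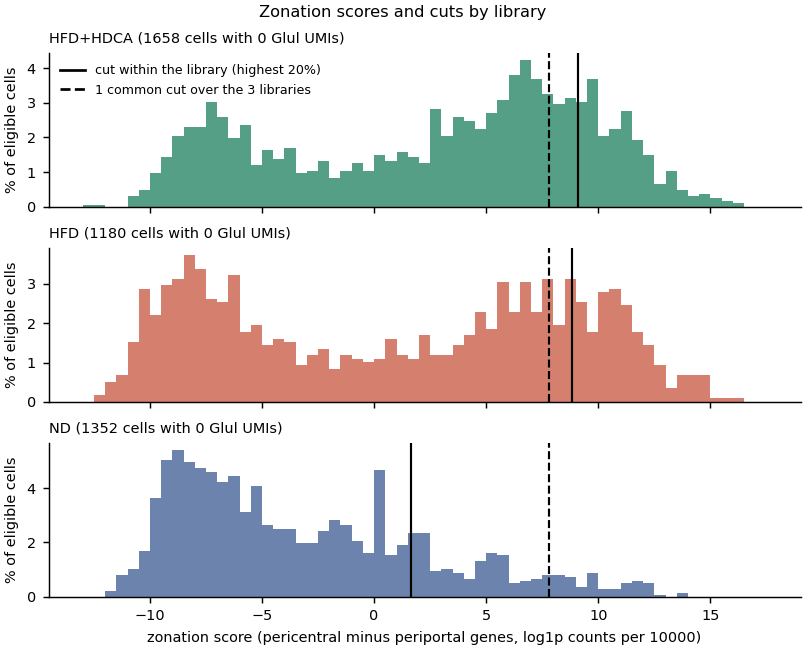
Distribution of the zonation score in cells with 0 Glul UMIs, by library, as a percentage of those cells (y axis), in bins of the score (x axis). Solid lines mark the cut within each library and dashed lines the common cut at 7.79; the solid line lies right of the dashed line in HFD+HDCA and HFD and far left of it, at 1.64, in ND.

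Genes that took no part in the score bear out the pericentral label within each library. Cyp1a2, a pericentral P450 that metabolises caffeine and aromatic amines, had 720 counts per 1000000 nuclear-encoded counts (CPM) in HFD+HDCA pericentral cells, 1205 in HFD and 792 in ND. At the periportal end of the score, the lowest 20% of cells, it had 9.63, 50.2 and 28.7 CPM in the same order of libraries. Cyp1a2 was thus 74.7-fold, 24.0-fold and 27.6-fold higher at the pericentral end. Hepatocyte markers were detected in full, 14 of 14 in each library, summing to 129965, 103621 and 102786 CPM.

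RNA of other cell types was nearly absent from the HFD+HDCA and HFD cells and present in the ND cells. Sinusoidal endothelial markers summed to 94.1 CPM in HFD+HDCA, 75.8 in HFD and 558 in ND, with 4, 3 and 15 of 16 markers detected. Macrophage markers summed to 1.11, 0 and 298 CPM, with 1, 0 and 14 of 15 detected, and Clec4f and Cd5l, which define Kupffer cells, were at 0 in HFD+HDCA and HFD. Lymphocyte markers summed to 0, 1.94 and 66.5 CPM and stellate cell markers to 5.54, 0 and 10.1 CPM. Central vein endothelial markers summed to 1.11, 3.89 and 12.1 CPM and erythrocyte markers to 52.0, 81.7 and 90.7 CPM. Cholangiocyte markers summed to 14.4, 5.83 and 24.2 CPM, with 2, 1 and 1 of 7 detected. Of these, Krt7, Krt19 and Epcam were at 0 throughout. Barcodes with at least 4 endothelial or 4 macrophage UMIs numbered 0, 0 and 19 of the chosen cells, the last being 7.04% of the ND cells. Under the common cut 1, 0 and 1 such barcodes entered, endothelial markers summed to 87.1, 81.9 and 242 CPM and macrophage markers to 20.7, 0 and 0 CPM.

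The promoters of 4 pericentral genes are shown because their values carry the comparison with the periportal end, and because TCF factors, which bind CTTTGAT and variants of it, work in this zone. Each is the 250 bases before the annotated start, 5′ to 3′ on the gene's strand, from RefSeq on GRCm38.p6. Slc1a2 lies at chr2:102706188-102706437 (+), Cyp2c29 at chr19:39286835-39287084 (+), Lect2 at chr13:56548539-56548788 (-) and Cyp1a2 at chr9:57683656-57683905 (-). Capitals mark CTTTGAT or CTTTGTT and also GCGTG, the core bound by the aryl hydrocarbon receptor, searched on both strands.
Slc1a2: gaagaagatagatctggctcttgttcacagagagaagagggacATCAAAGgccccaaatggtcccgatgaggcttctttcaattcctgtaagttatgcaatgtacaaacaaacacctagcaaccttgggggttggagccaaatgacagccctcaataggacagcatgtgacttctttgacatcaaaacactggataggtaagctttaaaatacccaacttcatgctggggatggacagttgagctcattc
Cyp2c29: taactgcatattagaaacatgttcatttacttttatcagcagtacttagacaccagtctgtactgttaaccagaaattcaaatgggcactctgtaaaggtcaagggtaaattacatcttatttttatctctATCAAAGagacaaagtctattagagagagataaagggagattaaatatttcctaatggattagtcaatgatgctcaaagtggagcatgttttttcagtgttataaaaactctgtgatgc
Lect2: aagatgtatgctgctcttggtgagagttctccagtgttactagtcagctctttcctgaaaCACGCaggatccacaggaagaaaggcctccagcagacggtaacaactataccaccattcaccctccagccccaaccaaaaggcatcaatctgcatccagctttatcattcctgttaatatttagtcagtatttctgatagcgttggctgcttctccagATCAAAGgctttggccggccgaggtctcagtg
Cyp1a2: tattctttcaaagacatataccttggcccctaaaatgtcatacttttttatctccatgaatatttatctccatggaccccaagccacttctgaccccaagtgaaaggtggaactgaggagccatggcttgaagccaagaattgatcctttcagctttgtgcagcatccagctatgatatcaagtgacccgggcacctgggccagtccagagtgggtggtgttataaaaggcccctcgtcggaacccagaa
ATCAAAG, the reverse complement of CTTTGAT, is followed by 200 bases up to the start of Slc1a2, by 112 in Cyp2c29 and by 25 in Lect2, and CACGC, the reverse complement of GCGTG, by 185 bases in Lect2. The Cyp1a2 window holds none of the letters searched. It does hold ttcaaag, the reverse complement of CTTTGAA, a variant that was not searched. Of 30 pericentral genes outside the score, 21 had a promoter in the RefSeq table and 5 of these (23.8%) held CTTTGAT or CTTTGTT, namely Cyp2c29, Lect2, Pon1, Slc1a2 and Sp5, while 0 of 17 periportal promoters did and 8.06% of all 32851 promoters did. GCGTG was in 6 of 21 pericentral (28.6%) and 3 of 17 periportal promoters (17.6%), against 28.2% of all. These are matches of letters only, and binding was not measured.

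Within each library, the pericentral end carried the known pericentral programme beyond the scored genes. The score chose the cells from the same counts, so the contrast with the periportal end is a description without a test. Of the 30 pericentral genes outside the score, 22, 22 and 21 had at least 60 counts in HFD+HDCA, HFD and ND, and 20, 21 and 17 of them were at least 2-fold higher at the pericentral end, with median log2 ratios of 2.84, 2.55 and 2.04. Over all genes measured in each library, 3.94%, 5.55% and 4.06% passed 2-fold towards the pericentral end and 2.74%, 3.92% and 2.01% towards the periportal end, with medians of 0.08, 0.08 and 0.16. Of 24 periportal genes outside the score, 17 of 23 measured in HFD+HDCA, 17 of 24 in HFD and 11 of 22 in ND were at least 2-fold lower, and 0 were higher.

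A transporter and several P450 enzymes had steep gradients. Slc1a2, the glutamate transporter of the cells nearest the vein, had 277, 136 and 26.2 CPM in HFD+HDCA, HFD and ND pericentral cells. At the periportal end it had 2, 0 and 0 counts, which made it 201-fold higher at the pericentral end of HFD+HDCA, at least 27.1-fold in HFD and at least 8.21-fold in ND, taking a count of 0 as at most 3. Filtered cells with a Glul UMI, which were left out, had more of it in each library, 503, 182 and 173 CPM. Cyp2c29, a P450 that epoxidises fatty acids, was 135-fold, 254-fold and 94.4-fold higher at the pericentral end of HFD+HDCA, HFD and ND. Gulo, the last enzyme of vitamin C synthesis, was 31.0-fold, 26.1-fold and 15.7-fold higher, and Lect2, a secreted chemotactic protein, 16.9-fold, 64.5-fold and 60.7-fold. The direct Wnt targets Axin2 (7, 2 and 2 counts), Lgr5 (20, 4 and 5), Sp5 (2, 1 and 1) and Nkd1 (0 in each) had too few counts in the chosen cells to be compared.

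Cyp3a11, the main bile acid and drug hydroxylase of the mouse Cyp3a family, had a gradient that depended on the diet. It had 391 CPM in HFD+HDCA, 235 in HFD and 6064 in ND pericentral cells, and 6.19, 3.35 and 3359 CPM at the periportal end. ND was high at both ends. In HFD+HDCA and HFD the level was low, and far higher at the pericentral than at the periportal end. On the periportal side, the lipid droplet enzyme Hsd17b13 was 14.6-fold, 23.2-fold and 5.44-fold lower in pericentral cells of HFD+HDCA, HFD and ND, and the glutaminase Gls2 was 10.3-fold, 20.8-fold and 4.23-fold lower. The ND contrast was shallower for both, in cells whose cut lay lower. Of the 40 nuclear genes of oxidative phosphorylation, 0 passed 2-fold between the ends in any library, with medians of -0.00, 0.20 and 0.15. The medians over all measured genes were 0.08, 0.08 and 0.16. Above 0 lay 20, 35 and 35 of 40 in HFD+HDCA, HFD and ND. In ND the list median was no higher than that over all measured genes.

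**Figure D2:**
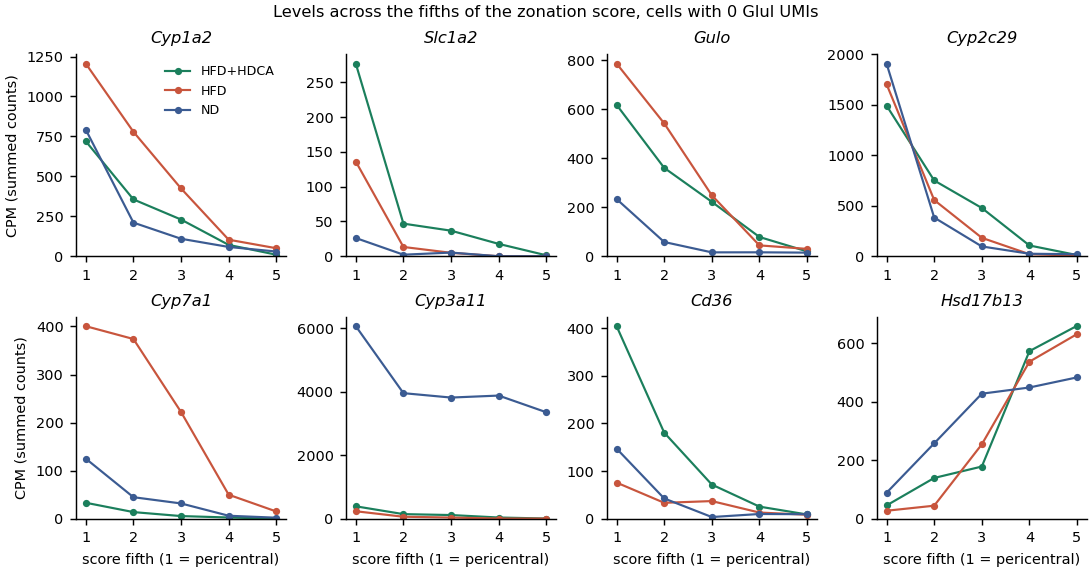
CPM of summed counts (y axis, linear from 0) in 5 bins of equal cell number along the zonation score of each library (x axis, 1 is the pericentral end), for 8 genes in cells with 0 Glul UMIs; 1 line per library. Cyp1a2, Slc1a2, Gulo and Cyp2c29 are highest in bin 1 in all libraries, Cyp3a11 is high in all bins of ND only, Cd36 reaches 404 CPM in bin 1 of HFD+HDCA, and Hsd17b13 is highest at the periportal end.

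In the HFD cells relative to ND, Cyp3a11, Scd1, Angptl8 and Csad were lower by more than 2-fold under both cuts, while Mup17, Lpin1, Alas1, Gulo and Cyp7a1 were higher by more than 2-fold. Of 3797 genes with at least 60 counts over the 3 libraries, 168 (4.42%) were higher in HFD by 2-fold or more and 190 (5%) were lower by as much, with a median log2 ratio of -0.05. Under the common cut 235 (5.97%) of 3937 were higher and 186 (4.72%) lower, with a median of -0.08. These shares over all measured genes are the background for every list count of HFD against ND below. The sets overlapped in part: 120 higher genes were shared, 71.4% of those under the within-library cut and 51.1% of those under the common one, and 94 lower genes were shared, 49.5% and 50.5%.

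Fewer pericentral genes were higher in HFD once the score cut was the same in both libraries. The common cut kept only the highest-scoring 76 of 270 ND cells. Unscored genes that follow the score can shift with that choice of cells, and its part was not tested. Among 24 measured pericentral genes outside the score, 6 were at least 2-fold higher in HFD (Slc1a2, Gulo, Lect2, Cyp7a1, Cyp2a5 and Por) and 1 was lower (Tbx3), with a median log2 ratio of 0.45. With the common cut 2 were higher (Gulo and Cyp7a1) and 1 lower (Tbx3), with a median of 0.00. Cyp1a2 had a log2 ratio of 0.61 (0.42 to 0.79) under the first cut and -0.05 (-0.26 to 0.18) under the common one, and Cyp2c29 had -0.16 and -0.99. Gulo kept its direction, with 787 CPM in HFD and 234 in ND, a log2 ratio of 1.75 (1.45 to 2.06) and 1.16 (0.80 to 1.57) under the common cut. Tbx3, a transcription factor of the pericentral zone, had 11.7 CPM in HFD and 62.5 in ND, with log2 ratios of -2.33 (-3.97 to -1.14) and -3.01 under the common cut. The scored genes followed the cut by construction: Cyp2e1, the ethanol-metabolising P450, had 10602 CPM in HFD and 5429 in ND, with a log2 ratio of 0.97 and 0.23 under the common cut.

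In bile acid synthesis, Cyp7a1 and Cyp7b1 were higher in HFD. Cyp7a1, the rate-limiting enzyme of the classical pathway, had 401 CPM in HFD and 125 in ND, a log2 ratio of 1.67 (1.26 to 2.11) and 1.26 (0.75 to 1.86) under the common cut. Cyp7b1, which hydroxylates oxysterols in the alternative pathway, had 389 CPM in HFD and 191 in ND, with log2 ratios of 1.02 and 0.74. These were the 2 of 15 measured bile acid synthesis genes past 2-fold under the within-library cut. Cyp7a1 alone passed it under the common cut, and 0 were lower under either. Shares over all measured genes were 4.42% higher and 5% lower, and 5.97% and 4.72% under the common cut.

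Cyp3a11, Angptl8 and Csad were among the genes lowest in HFD relative to ND. Cyp3a11, with 235 CPM in HFD and 6064 in ND, was 25.8-fold lower, a log2 ratio of -4.68 (-4.96 to -4.43) and -5.25 under the common cut. Cyp3a25 of the same family had 587 CPM in HFD and 1197 in ND, a log2 ratio of -1.03 and -1.08 under the common cut, and the epoxide hydrolase Ephx1 had 73.9 and 208 CPM, log2 ratios of -1.48 and -1.62. The 20 measured xenobiotic genes as a list did not move one way. In HFD 2 were at least 2-fold higher (Cyp2b9, with 0 ND counts, and Sult1a1) and 3 lower, with a median of 0.26. Under the common cut 2 were higher and 6 lower, with a median of 0.06, or -0.21 with Cyp2b9 at its bound. Shares over all measured genes were 4.42% higher and 5% lower, and 5.97% and 4.72% under the common cut. In ND, Cyp3a11 UMIs were also found in 85.4% of the barcodes rich in endothelial or macrophage RNA, against 95.2% of the pericentral cells, so a Cyp3a11 UMI in an ND barcode does not by itself mark a hepatocyte. Angptl8, a feeding-induced secreted inhibitor of lipoprotein lipase, had 11.7 CPM in HFD and 415 in ND, 35.6-fold lower, with log2 ratios of -5.04 (-6.62 to -4.01) and -3.99 under the common cut. Csad, which makes the taurine precursor used to conjugate bile acids, had 95.3 CPM in HFD and 1082 in ND, with log2 ratios of -3.49 (-3.96 to -3.08) and -3.85. In all of these ND was the high library under either cut.

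Among genes of fatty acid synthesis and storage, more passed 2-fold downwards than upwards in HFD. Of 20 measured lipogenesis genes, 8 were at least 2-fold lower (Acacb, Acly, Fasn, Scd1, Me1, Mlxipl, G0s2 and Angptl8) and 4 higher (Fads2, Thrsp, Lpin1 and Lpin2), with a median log2 ratio of -0.62; under the common cut 9 were lower and 5 higher, with a median of -0.83. Scd1, the stearoyl-CoA desaturase, had 1861 CPM in HFD and 10699 in ND, a log2 ratio of -2.52 (-2.62 to -2.42) and -2.51 under the common cut. Single cells showed the same, with a median of 11.8 Scd1 counts per 10000 in HFD and 85.8 in ND. Fasn, the fatty acid synthase, had 89.4 CPM in HFD and 216 in ND, and Acly, which supplies its acetyl-CoA, 115 and 286 CPM, with log2 ratios under the common cut of -1.15 for Fasn and -1.01 for Acly. Lpin1, a phosphatidate phosphatase that also acts in transcription, went the other way with 675 CPM in HFD and 18.1 in ND, 37.2-fold higher, a log2 ratio of 5.14 (4.28 to 6.36) and 5.39 under the common cut. Lpin1 UMIs were in 67.8% of the HFD and 3.33% of the ND pericentral cells, or 44.1% and 0.877% after thinning to 1000 UMIs. Cells below 1000 UMIs were left out wherever cells were thinned. For shares of pericentral cells these were 32 of 331 in HFD+HDCA, 16 of 236 in HFD and 42 of 270 in ND. The barcodes rich in other cells' RNA had Lpin1 UMIs in 16.7% and 2.08% in HFD and ND, unthinned.

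Among PPARα targets, 4 of 24 measured were at least 2-fold higher in HFD (Acot3, Acot4, Vnn1 and Cpt1a) and 2 lower (Cyp4a12a and Cyp4a14), with a median of -0.02. The list spans fatty acid oxidation, ω-hydroxylation, uptake and other functions. Across all measured genes 4.42% were higher and 5% lower, and 5.97% and 4.72% under the common cut. At the common cut, 1 of 25 was higher (Plin5) and 6 lower (Cyp4a10, Cyp4a12a, Cyp4a14, Acot1, Ehhadh and Cd36), with a median of -0.15. Cyp4a14, a fatty acid ω-hydroxylase, had 218 CPM in HFD and 1024 in ND, with log2 ratios of -2.23 (-2.54 to -1.94) and -2.82. Acot3 had 3 and 1 counts, a ratio of 2.89 with a log2 interval of -2.11 to 7.25, and turned below 0 under the common cut.

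Of 20 measured cholesterol synthesis and uptake genes, 5 were at least 2-fold higher in HFD (Sqle, Msmo1, Dhcr7 and Hsd17b7 among them) and 0 lower, with a median of 0.61. The common cut gave 5 of 22 higher and 1 (Acat2) lower, with a median of 0.33. Msmo1, a sterol demethylase, had 422 CPM in HFD and 115 in ND, log2 ratios of 1.87 (1.45 to 2.32) and 1.47.

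Of the glutathione and antioxidant genes, 5 of 20 were at least 2-fold lower in HFD (Gsta2, Gsta4, Gstm1, Gstm4 and Gstt2) and 0 higher. Their median was -0.54. Under the common cut 6 of 19 were lower and 1 (Mt1) higher, with a median of -0.38. Across all measured genes 5% were lower and 4.42% higher, and 4.72% and 5.97% under the common cut. Gsta2, an α-class glutathione transferase, had 9 counts in HFD and 99 in ND, a log2 ratio of -3.44 (-4.68 to -2.53) and -3.02 under the common cut, where its summed count was below the minimum of 60. Gsta4, of the same class, had 27.2 CPM in HFD and 92.7 in ND, log2 ratios of -1.73 and -1.74.

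Among other regulators and enzymes, Tat, Pck1 and Alas1 were higher in HFD under both cuts. Beside the list counts here, 4.42% of all measured genes were higher and 5% lower, and 5.97% and 4.72% under the common cut. Of 8 measured glucocorticoid-responsive genes, 5 were at least 2-fold higher (Fkbp5, Tsc22d3, Tat, Klf9 and Cebpb) and 1 was lower (Sgk1), with a median of 1.18, and 4 and 1 under the common cut, with a median of 0.88. Tat, the tyrosine aminotransferase, had 3531 CPM in HFD and 1588 in ND, log2 ratios of 1.15 and 1.37, and Pck1, which commits oxaloacetate to glucose synthesis, had 3128 and 1080 CPM, log2 ratios of 1.53 and 1.88. Alas1, the first enzyme of haem synthesis, had 437 CPM in HFD and 20.2 in ND, with log2 ratios of 4.37 (3.53 to 5.52) and 3.57. Mfsd2a, a lysophospholipid transporter, had 121 CPM in HFD and 4.03 in ND, the ND value from 2 counts, and a log2 interval of 2.99 to 7.98; under the common cut it had 78 counts in HFD and 0 in ND. Clock outputs also differed: Dbp had 71.9 and 8.06 CPM and Nr1d2 117 and 28.2 CPM in HFD and ND, while Clock itself had 19.4 and 86.7 CPM. Their log2 ratios under the common cut were 2.45, 3.14 and -1.81. Of 8 measured clock genes, 3 were higher and 1 lower, with a median of 0.41, and with the common cut 4 of 9 were higher and 1 lower, with a median of 0.77.

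Of 24 measured male-biased genes, 10 were at least 2-fold higher in HFD and 2 lower (Elovl3 and Cyp4a12a), with a median of 0.62. The higher genes were Mup copies, apart from Cyp7b1 and Selenbp2. Under the common cut 8 were higher and 3 lower, with a median of 0.63. The higher ones were then Mup copies apart from Selenbp2 and Serpina1e. Shares over all measured genes were 4.42% higher and 5% lower, and 5.97% and 4.72% under the common cut. Mup17, a major urinary protein that carries pheromones, had 12553 CPM in HFD and 784 in ND, 16.0-fold higher, and a log2 ratio of 3.07 under the common cut. Reads of the Mup copies are hard to assign to 1 gene, so single Mup values are uncertain. The same holds among near-identical members of the Serpina1, Saa, Ugt2b, Gstm and Gsta families and of the Cyp2 to Cyp4 families.

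Some periportal genes changed sign with the cut. The score counts periportal genes too, and the part of that choice of cells in these changes was not tested. In HFD relative to ND, 0 of 40 nuclear genes of oxidative phosphorylation passed 2-fold, with a median of -0.28 and 36 of 40 below 0, and a median of -0.14 and 32 below 0 under the common cut. Of 19 measured periportal genes outside the score, 2 were higher (Pck1 and Mfsd2a) and 4 lower, with a median of -0.11; under the common cut 5 were higher and 0 lower, with a median of 0.47. Gls2, Gldc and Hsd17b13 had log2 ratios of -2.13, -1.12 and -1.67 under the within-library cut and 0.98, 0.62 and 0.52 under the common one. Etnppl, a phosphoethanolamine lyase of the periportal zone, was lower in HFD under both, with 7.78 CPM in HFD and 163 in ND and log2 ratios of -4.23 and -3.08. Tmsb4x, an actin-binding protein abundant in blood and endothelial cells, had 0 counts in HFD and 133 in ND, at least 45.9-fold lower. The ND cells also held the endothelial and macrophage marker RNA given above, and under the common cut Tmsb4x had 0 counts in HFD and 6 in ND (30.9 CPM).

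**Figure D3:**
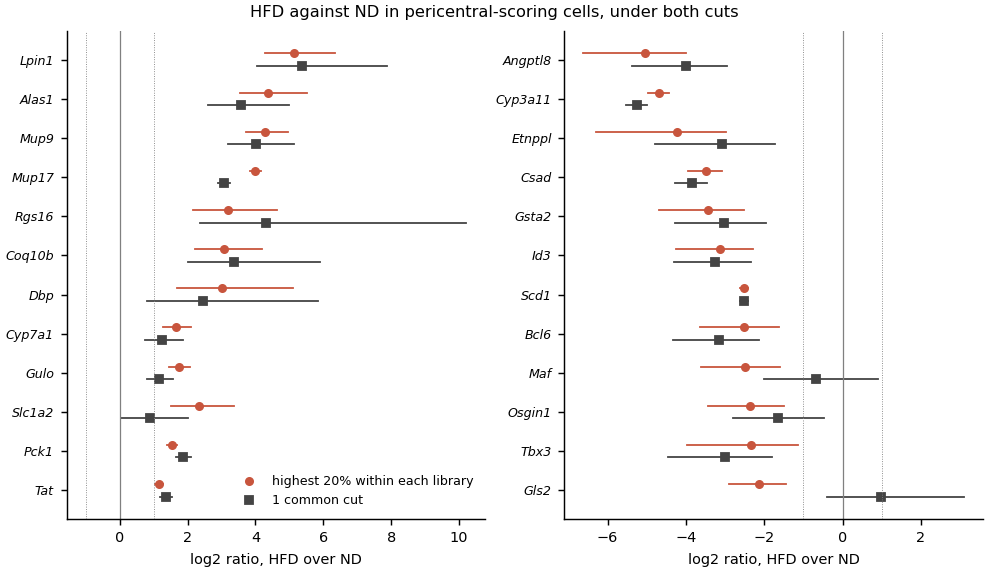
Log2 ratios of HFD over ND (x axis) for 24 genes in pericentral-scoring cells, under the cut within each library (circles) and the common cut (squares); bars are 95% counting intervals, and dotted lines mark 2-fold. Most pairs lie close together, but Gls2 lies at -2.13 and 0.98 and Maf, a transcription factor, at -2.49 and -0.69.

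HFD+HDCA and HFD pericentral cells were cut at nearly the same score, so this comparison of pericentral cells rests on cells of like score. The libraries themselves were not alike. The median mitochondrially encoded share over all barcodes was 14.5% in HFD+HDCA and 63.1% in HFD. The part of that gap in the differences below was not tested. With HDCA, 14 of 24 measured male-biased genes and 4 of 15 bile acid synthesis genes were lower by 2-fold or more, while 8 of 20 lipogenesis genes, 4 of 20 cholesterol synthesis and uptake genes and Cyp2b9, Cd36 and Cyp4a14 were higher by as much. Among the 3797 genes, 102 (2.69%) passed 2-fold towards HFD+HDCA and 75 (1.98%) towards HFD, with a median log2 ratio of 0.04. Of these, 63 and 59 were also called under the common cut, which is 61.8% and 78.7% of them, and 69.2% and 86.8% of the 91 (2.31%) and 68 (1.73%) genes called there. This comparison and that of HFD with ND share the HFD library, so their values are not independent. The shares of 2.69% higher and 1.98% lower are the background for every list count of HFD+HDCA against HFD below.

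Among bile acid synthesis genes, Cyp7a1 had the lowest ratio in HFD+HDCA cells. Of 15 measured, 14 had a log2 ratio below 0 and 4 were at least 2-fold lower (Cyp7a1, Cyp8b1, Cyp7b1 and Cyp2c70), with a median of -0.47. Cyp7a1 had 33.2 CPM in HFD+HDCA, 401 in HFD and 125 in ND, 12.1-fold lower in HFD+HDCA than in HFD, a log2 ratio of -3.57 (-4.20 to -3.03). HFD was the highest of the 3 libraries. Cyp7a1 UMIs were found in 6.65% of HFD+HDCA, 50.4% of HFD and 15.9% of ND cells, or 2.34%, 26.8% and 9.21% after thinning, against 0, 4.17% and 2.08% of the barcodes rich in other cells' RNA. Cyp8b1, the sterol 12α-hydroxylase that sets the cholic acid share, had 63.1 CPM in HFD+HDCA and 171 in HFD, a log2 ratio of -1.43 (-1.95 to -0.94). Cyp2c70, which makes the muricholic acids of mice, had 186 and 762 CPM, a log2 ratio of -2.03 (-2.30 to -1.77). Of 12 measured bile acid transporters and receptors, 0 passed 2-fold.

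Drug metabolism genes split between members. Cyp2b9, a P450 found mostly in female mouse liver, had 418 CPM in HFD+HDCA, 13.6 in HFD and 0 counts in ND. It was 30.7-fold higher in HFD+HDCA than in HFD, a log2 ratio of 4.84 (3.89 to 6.27), and at least 69.2-fold higher than in ND under the within-library cut. Its UMIs were in 56.5% of HFD+HDCA cells and 2.12% of HFD cells, or 30.8% and 0.909% after thinning, and in 3.70% and 0 of the barcodes rich in other cells' RNA. Cyp2c54 had 319 and 877 CPM, a log2 ratio of -1.46 (-1.68 to -1.24), and Cyp1a2 720 and 1205 CPM, a log2 ratio of -0.74 (-0.91 to -0.58). Over the 20 measured xenobiotic genes 2 were higher (Cyp2b9 and Cyp2c38) and 2 lower (Cyp2a12 and Ugt2b1), with a median of 0.05. Across all measured genes 2.69% were higher and 1.98% lower.

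Among PPARα targets, 4 of 24 measured were at least 2-fold higher in HFD+HDCA (Cyp4a14, Acot3, Vnn1 and Cd36) and 0 lower, with a median of 0.07, against 0.04 over all measured genes. Cd36, a fatty acid uptake receptor, had 404 CPM in HFD+HDCA, 75.8 in HFD and 147 in ND, 5.33-fold higher in HFD+HDCA than in HFD, a log2 ratio of 2.40 (1.94 to 2.93). HFD was the lowest of the 3. Cd36 UMIs were in 51.4% of HFD+HDCA and 12.3% of HFD cells, or 29.4% and 5% after thinning. Sinusoidal endothelium also expresses Cd36, and barcodes rich in other cells' RNA had it in 27.8% and 41.7%. The chosen cells of both libraries held 0 such barcodes and 94.1 and 75.8 CPM of endothelial markers, and the part of endothelial RNA in the Cd36 values was not tested. Cyp4a14 had 1082 CPM in HFD+HDCA, 218 in HFD and 1024 in ND, a log2 ratio of 2.31 (2.03 to 2.61) over HFD. Vnn1, a pantetheinase, had 111 and 54.4 CPM in HFD+HDCA and HFD, and Acot3, a peroxisomal thioesterase, 75.3 and 5.83 CPM, the HFD value from 3 counts.

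Of 20 measured lipogenesis genes, 8 were at least 2-fold higher in HFD+HDCA (Acly, Fasn, Elovl5, Me1, Gpam, Acss2, G0s2 and Angptl8) and 0 lower, 17 lay above 0 and the median was 0.42. Me1, which supplies NADPH for the pathway, had 343 CPM in HFD+HDCA, 81.7 in HFD and 359 in ND, a log2 ratio of 2.06 over HFD. Acly had 360, 115 and 286 CPM and Fasn 267, 89.4 and 216 CPM in HFD+HDCA, HFD and ND. HFD was the low library for all of these. Scd1 did not follow them, with 1348 CPM in HFD+HDCA, 1861 in HFD and 10699 in ND.

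Of 20 measured cholesterol synthesis and uptake genes, 4 were at least 2-fold higher in HFD+HDCA (Pmvk, Acat2 and Insig1 among them) and 0 lower, with 19 above 0 and a median of 0.74. Insig1, which retains the SREBP precursors in the endoplasmic reticulum, had 1331 CPM in HFD+HDCA, 593 in HFD and 433 in ND, a log2 ratio of 1.16 (0.98 to 1.35) over HFD. Msmo1 had 598, 422 and 115 CPM. For both, HFD+HDCA was highest and ND lowest.

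All 24 measured male-biased genes had a log2 ratio below 0 in HFD+HDCA relative to HFD, or at 0 to 2 decimals for Cyp4a12a. At least 2-fold lower were 14 of them, with a median of -1.34 over the list. They were Mup copies apart from Hsd3b5, Cyp4a12b, Cyp7b1, Selenbp2, C6, Serpina1e and Ugt2b1. Of 21 female-biased genes 4 were measured, 2 of them at least 2-fold higher (Cyp2b9 and Acot3). Selenbp2, a selenium-binding protein, had 1 count in HFD+HDCA, 226 in HFD and 49 in ND (1.11, 439 and 98.7 CPM), a ratio of 0.00252 to HFD with a log2 interval of -13.94 to -6.14. Hsd3b5, a steroid reductase, had 33.2 CPM in HFD+HDCA, 175 in HFD and 151 in ND, and Cyp4a12b, a fatty acid ω-hydroxylase, 4.43, 83.6 and 155 CPM. Mup17 had 1896, 12553 and 784 CPM, so HFD+HDCA was lower than HFD but higher than ND. Egfr, the epidermal growth factor receptor, was not on the list and had 105, 626 and 276 CPM, a log2 ratio of -2.57 (-2.92 to -2.24) over HFD. The sex of the mice in each library is not given in the sources used here. A difference in sex and a difference in diet were not told apart for these genes.

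Of 24 measured pericentral genes outside the score, 2 were at least 2-fold higher in HFD+HDCA (Slc1a2 and Tbx3) and 2 lower (Cyp2c54 and Cyp7a1), with a median of -0.04. Slc1a2 had 277 CPM in HFD+HDCA and 136 in HFD, a log2 ratio of 1.02 (0.64 to 1.43), and its UMIs were in 23.0% and 11.0% of the cells, or 14.7% and 7.27% after thinning, with 1.85% and 4.17% of the barcodes rich in other cells' RNA. Tbx3 had 27.7 and 11.7 CPM, with an interval of -0.07 to 2.82 that includes 0. Of other nitrogen and methyl metabolism, Cps1, the first enzyme of the urea cycle, had 2077 CPM in HFD+HDCA and 4616 in HFD, a log2 ratio of -1.15 (-1.24 to -1.06), and Bhmt, which remethylates homocysteine with betaine, had 412 and 1812 CPM, a log2 ratio of -2.14 (-2.31 to -1.96). None of the 40 nuclear genes of oxidative phosphorylation passed 2-fold, with a median of 0.12.

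**Figure D4:**
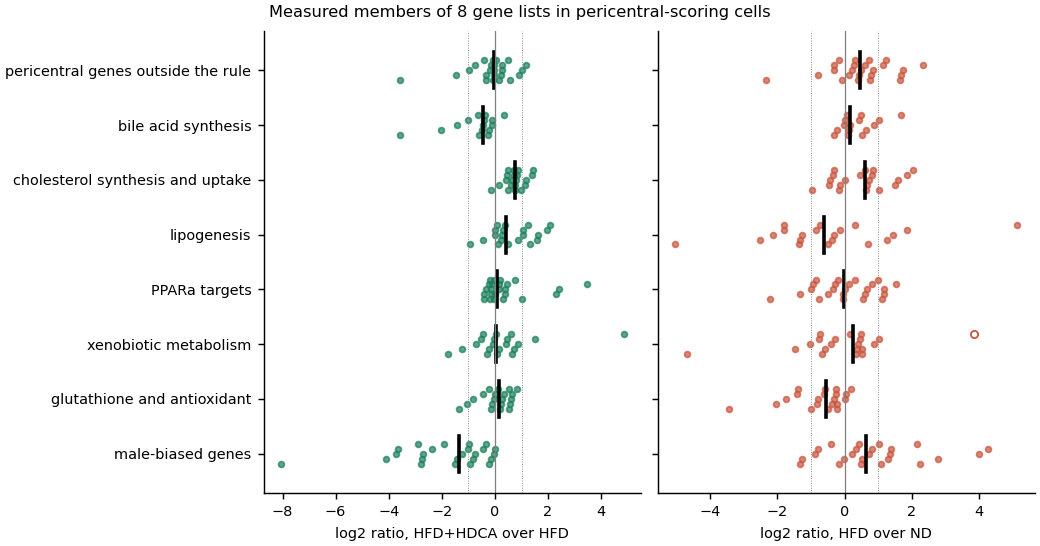
Log2 ratios of the measured members (points) of 8 gene lists in pericentral-scoring cells, HFD+HDCA over HFD on the left and HFD over ND on the right; black bars are list medians, dotted lines mark 2-fold, and the open circle is Cyp2b9, which had 0 counts in ND. Male-biased genes have a median of -1.34 on the left and 0.62 on the right, and lipogenesis genes 0.42 and -0.62.

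Set against ND directly, HFD+HDCA cells had 136 genes (3.58%) higher by 2-fold or more and 147 (3.87%) lower by as much, with a median of -0.01. The common cut gave 227 (5.77%) of 3937 higher and 145 (3.68%) lower, with a median of -0.02. Of these calls 86 higher genes were shared, 63.2% of those under the within-library cut and 37.9% of those under the common one, and 76 lower genes were shared, 51.7% and 52.4%. Of 20 measured cholesterol synthesis and uptake genes, 11 were at least 2-fold higher and 0 lower, with a median of 1.27, and 10 of 22 were higher and 0 lower under the common cut. Of 24 male-biased genes, 11 were lower and 1 (Mup17) higher, with a median of -0.77, and 11 were lower and 1 (Mup21) higher under the common cut, with a median of -0.83. Cyp3a11 had 391 CPM in HFD+HDCA and 6064 in ND, log2 ratios of -3.95 and -4.59, and Cyp7a1 33.2 and 125 CPM, log2 ratios of -1.90 and -2.59. This comparison carries the same difference in score as HFD against ND. It also carries the gap in median mitochondrially encoded share over all barcodes, 14.5% in HFD+HDCA and 61.1% in ND.

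Several diet differences were not alike at the ends of the score. For HFD+HDCA relative to HFD, the log2 ratio at the pericentral end exceeded that at the periportal end by at least 1 for 104 (2.79%) of 3727 genes measured at both ends, and was smaller by at least 1 for 103 (2.76%). For HFD relative to ND these were 113 (3.03%) and 201 (5.39%), and 195 (5.09%) and 208 (5.43%) of 3830 under the common cut. Under that cut the counts for HFD+HDCA relative to HFD were 109 and 85 of 3830. The periportal ends were not cut at a like score, with highest scores of -5.41 in HFD+HDCA, -7.71 in HFD and -8.28 in ND. The part of this gap in the differences between ends was not tested. Cd36 had 404 and 75.8 CPM at the pericentral end of HFD+HDCA and HFD, against 8.94 and 8.37 CPM at the periportal end, so its log2 ratios were 2.40 and 0.01 (-1.48 to 1.94). Serpina1e, an α1-antitrypsin copy, had 370 and 2568 CPM at the pericentral end of HFD+HDCA and HFD but 5052 and 4991 CPM at the periportal end, log2 ratios of -2.79 (-2.97 to -2.62) and 0.02 (-0.04 to 0.08). Acly and Fasn had log2 ratios of 1.64 and 1.56 at the pericentral end and 0.38 and 0.43 at the periportal end, and Insig1 1.16 and 0.44.

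Other genes differed more at the periportal end. Mup11 had 3006 and 8110 CPM at the pericentral end of HFD+HDCA and HFD, and 40.6 and 2163 CPM at the periportal end, log2 ratios of -1.43 and -5.72. Aldh3a2, a fatty aldehyde dehydrogenase, had 503 and 521 CPM at the pericentral end and 48.8 and 5.02 CPM at the periportal end, the last from 3 counts, log2 ratios of -0.05 and 3.07. Cyp27a1, the mitochondrial sterol hydroxylase that opens the alternative bile acid pathway, had 152 and 204 CPM at the pericentral end and 17.9 and 87.0 CPM at the periportal end, log2 ratios of -0.43 and -2.27. For HFD relative to ND, Scd1 had a log2 ratio of -2.52 at the pericentral end and -0.83 at the periportal end, and Cyp3a11 -4.68 and -9.65, the periportal HFD value resting on 2 counts. Median depth was higher at the periportal end (5383, 2995.5 and 4068 UMIs in HFD+HDCA, HFD and ND), and its part in these differences was not tested.

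**Figure D5:**
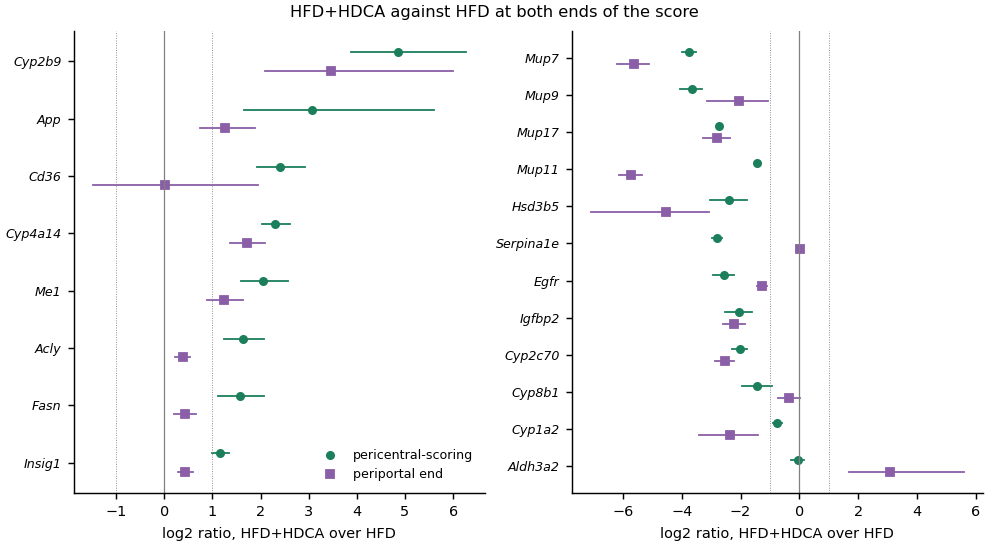
Log2 ratios of HFD+HDCA over HFD (x axis) at the pericentral end (circles) and the periportal end (squares) of the score for 20 genes, with 95% counting intervals and dotted lines at 2-fold. Cd36 and Serpina1e differ at the pericentral end and lie at 0.01 and 0.02 at the periportal end, while Mup11 and Aldh3a2 are farther from 0 at the periportal end.

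Values of single cells are given for 1 scored gene and 3 others. Cyp2e1, whose level and spread the score cut sets, had a median of 92.1 counts per 10000 in HFD+HDCA cells, 92.7 in HFD and 24.2 in ND, with quartiles of the cells running from 68.1 to 115, from 69.9 to 112 and from 10.2 to 63.9. Cyp1a2 had medians of 4.94, 10.0 and 0, with upper quartiles of 9.54, 16.0 and 9.44, and UMIs in 62.8%, 81.4% and 48.5% of the cells, or 43.8%, 60.0% and 39.0% after thinning, against 7.41%, 0 and 7.29% of the barcodes rich in other cells' RNA. Mup17 had medians of 5.95, 103 and 0, and 5% of the HFD cells had 9.54 or fewer. Cyp4a14 had medians of 8.73, 0 and 2.68, so that at least 50% of the HFD cells had no UMI of it, while over 50% of the cells in each other library had one. These spreads include the counting noise of single cells, and the shares were computed for genes chosen after their values were seen.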

How the data were processed

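The deposited matrices hold UMI counts per gene and barcode. The file headers name Cell Ranger 5.0.0, the submitters' processing notes the build mm10, and the labels' protocols a 3′ kit. The sources used here do not say how the deposited barcodes were chosen. Doublets were neither called nor removed; leaving out the deepest 5% of cells was tried as an alternative.

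Counts of the chosen cells were summed per library and given as CPM of nuclear-encoded counts, which leave out the mitochondrially encoded genes. Log2 ratios used a prior count of 0.5, with 95% exact conditional binomial intervals. Genes needed a summed count of at least 60 to be measured, and 2-fold was the size rule, with no test. Both ends of the score came from the same filtered cells. UMIs are molecules, and intervals cover counting error only.

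Genes named were, for HFD against ND and HFD+HDCA against HFD, the 12 highest and 12 lowest ratios with at least 50 CPM in either library. Up to 4 members of each of 35 gene lists per comparison and the scored genes were also named. So were the 8 steepest zone contrasts each way and the 5 largest differences between ends. Mitochondrial, ribosomal, unnamed, Y-linked and other-cell marker genes and Xist were left out. Some genes so named are not reported here. The cells, lists and rules were chosen with earlier results of these data known. List members outside that rule are printed as names past 2-fold. Of 32285 features, 32158 matched GENCODE release M21. Scripts were tested on simulated data and used Python 3.11.15, numpy 2.4.6, pandas 2.3.3 and scipy 1.17.1.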

Additional observations from a re-analysis of the deposited data

How the results depend on the processing

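The results were recomputed under 17 alternatives, 1 of them chosen after seeing the data. No paired analysis was possible because each diet has 1 library. Of 239 named values, 239 stayed close to the reported value (within its counting interval) with all counts as the total and with a prior count of 1, and 237 without the deepest 5% of cells, where doublets would gather. With the common cut 184 stayed close, 49 moved and 6 reversed, and after thinning to 1000 UMIs 181, 57 and 1 did.

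With a count minimum of 20, genes 2-fold higher and lower numbered 368 and 679 (HFD over ND), 406 and 245 (HFD+HDCA over HFD), 341 and 517 (HFD+HDCA over ND); at the pericentral over the periportal end 394 and 293 (HFD+HDCA), 323 and 256 (HFD), 391 and 189 (ND); and genes whose diet ratio differed between ends 939 (HFD+HDCA over HFD) and 1183 (HFD over ND), against 207 and 314 in the report. With a minimum of 200 these were 77 and 35, 26 and 32, 60 and 39, then 83 and 64, 58 and 46, 45 and 30, then 27 and 41. After thinning they were 106 and 94, 50 and 48, 81 and 71, then 83 and 49, 73 and 51, 60 and 27, then 84 and 127. A lower minimum admits genes of few counts, and thinning and a higher minimum leave fewer genes measured. With the highest 10% of scores, 98 were lower in HFD than ND, 63 higher in HFD+HDCA than HFD and 75 lower than ND, and 127 and 197 differed between ends. With the common cut 227 were higher in HFD+HDCA than ND, and 173 lower at the pericentral end of ND; also without barcodes of other cells, the alternative chosen after seeing the data, 225 and 164.

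Log2 ratios that reversed for HFD over ND under the common cut were Hsd17b13 (0.52), Oat (-0.15), Gls2 (0.98), Acot3 (-0.15), Nr4a1 (1.15) and Gldc (0.62), and also without barcodes of other cells Hsd17b13 (0.45), Oat (-0.15), Gls2 (0.98), Acot3 (-0.15), Nr4a1 (1.15) and Gldc (0.47). With the highest 10% of scores, Acot3 (-1.36) and Nr4a1 (0.020) reversed for HFD over ND and Gsta2 (0.28) for HFD+HDCA over HFD, and Gsta2 (0.45) again after thinning. The cause of each reversal was not tested. Depth limits the genes near the count minimum, whose intervals often include 0, and with 1 library per diet the spread between mice is not known.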

Other observations

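Immediate early genes, which respond within minutes to stress and growth signals, passed 2-fold more often in HFD pericentral cells over ND cells under the common cut than under the within-library cut. Of 15 measured early response and heat shock genes, 1 (Gadd45g) was at least 2-fold higher in HFD and 1 (Nr4a1) lower, with a median log2 ratio of 0.38. With the common cut 8 were higher, 0 were lower and the median was 1.03. Over all measured genes 4.42% were higher and 5% lower under the within-library cut, and 5.97% and 4.72% under the common one. Fos had 449 CPM in HFD+HDCA, 204 in HFD and 113 in ND, and HFD+HDCA was the highest library. How long the cells of each library were handled is not given in the sources used here.

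Of 18 measured acute phase genes, 2 were at least 2-fold higher in HFD than in ND (Saa1 and Saa4), with a median log2 ratio of 0.27. Under the common cut 3 were higher (Serpina3n too), with a median of 0.21, and 0 were lower under either. Over all measured genes 4.42% were higher under the within-library cut and 5.97% under the common one. In HFD+HDCA relative to HFD, 2 were lower (Saa1 and Serpina3k) and 0 higher, with a median of 0.04. Over all measured genes 1.98% were lower there. Saa4, a constitutive serum amyloid carried on lipoproteins, had 208 CPM in HFD+HDCA, 362 in HFD and 133 in ND. Igfbp2, which binds insulin-like growth factors, had 62.0 CPM in HFD+HDCA, 259 in HFD and 536 in ND. Its log2 ratio of HFD+HDCA over HFD was -2.05 at the pericentral and -2.22 at the periportal end. Rgs16, which speeds the shut-off of G protein signals, had 121, 136 and 14.1 CPM, and Coq10b, which binds coenzyme Q, 168, 194 and 22.2 CPM, ND being the low library for both. Id3, an inhibitor of helix-loop-helix transcription factors, had 24.4, 21.4 and 195 CPM, and Bcl6, a transcriptional repressor, 28.8, 21.4 and 127 CPM, ND being the high library. The ND cells also held the endothelial and macrophage marker RNA given above, and its part in the Id3 and Bcl6 values was not tested. Trim24, a nuclear receptor cofactor, had 53.1, 9.72 and 18.1 CPM and Rbfox2, a splicing factor, 66.4, 15.6 and 50.4 CPM, with log2 ratios of HFD+HDCA over HFD of 2.33 (1.13 to 4.14) and 2.02 (1.02 to 3.37).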
